A study of Rattus norvegicus with 6 samples.

Results

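Ptgs1, Ptgs2 and Alox5 encode the enzymes that open the cyclooxygenase and 5-lipoxygenase branches of arachidonic acid metabolism, and their transcripts were followed in macrophages with and without the epoxygenase Cyp2j4. The 3 genes were taken by Ensembl identifier from the 29516 genes of the count table (ENSRNOG00000007415 for Ptgs1, ENSRNOG00000002525 for Ptgs2 and ENSRNOG00000012972 for Alox5). The table holds identifiers alone, so the symbols are those given with the identifiers for this work and were not checked against a second source. Macrophages had been grown from the bone marrow of Wistar-Kyoto (WKY) rats, and poly(A)-selected RNA was sequenced. One group of 3 libraries is labelled wild type, and the other 3 are labelled Cyp2j4 knockout, with no promoter or cell type given that would restrict the loss. All 6 share the WKY strain, and the labels list no stimulus, age or sex and no method of making the knockout.

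Arachidonic acid released from membrane phospholipids is shared by several families of enzymes. Cyclooxygenases turn it into prostaglandin H2, the precursor of prostaglandins, prostacyclin and thromboxane. Cyclooxygenase 1 (Ptgs1) is the constitutive form in many tissues, and cyclooxygenase 2 (Ptgs2) is the inducible form, low in resting macrophages and rapidly expressed after inflammatory stimuli. 5-Lipoxygenase (Alox5) starts the synthesis of leukotrienes, lipid mediators that myeloid cells release. Epoxygenases such as Cyp2j4 convert the same substrate to epoxyeicosatrienoic acids.

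The libraries held from 21590429 to 33916549 gene counts, with every knockout library below every wild-type library, so that 3 counts were worth 0.0885 to 0.139 CPM, counts scaled to a gene total of 1000000. Knockout replicate 2 stood apart: its Spearman correlations with the other knockout libraries, across genes, were 0.983 and 0.985, where those libraries correlated at 0.994 with each other and the wild-type libraries at 0.996 to 0.997. With wild type replicate 1 it correlated at 0.993, where knockout replicates 1 and 3 correlated with that library at 0.992 and 0.991. Its residuals from the group mean had the highest correlation of any pair across genotypes with those of the same library (0.445). This likeness did not extend to the rest of the wild-type group. The Spearman value fell to 0.985 for the pair with wild type replicate 2 and 0.986 for that with replicate 3, the lowest across genotypes. Residuals in these pairs had correlations of -0.14 and -0.33. Values with and without knockout replicate 2 are therefore given below. The level of Cyp2j4 and the markers of macrophages and of other cell types were not analysed here, since their identifiers are not paired with symbols, so neither the genotype labels nor the cell type were checked. In such RNA pools, a change in the share of expressing cells and a change in RNA per cell cannot be told apart.

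The sequences just upstream of the 3 genes are shown as a description. The motifs marked in them were chosen after the data were seen, and a link between motifs and counts was not tested. Each sequence is the 250 bases before the RefSeq start of the gene in the rat build GRCr8, 5′ to 3′ on the strand of the gene. The windows are chr3:39981169-39981418 (plus strand) for Ptgs1, chr13:64713813-64714062 (plus strand) for Ptgs2 and chr4:151251127-151251376 (minus strand) for Alox5. Capitals mark matches to the motifs searched.
Ptgs1: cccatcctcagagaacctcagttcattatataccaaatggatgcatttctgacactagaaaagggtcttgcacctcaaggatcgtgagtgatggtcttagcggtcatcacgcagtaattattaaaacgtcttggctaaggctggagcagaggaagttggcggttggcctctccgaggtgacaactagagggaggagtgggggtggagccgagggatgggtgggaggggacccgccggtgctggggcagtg
Ptgs2: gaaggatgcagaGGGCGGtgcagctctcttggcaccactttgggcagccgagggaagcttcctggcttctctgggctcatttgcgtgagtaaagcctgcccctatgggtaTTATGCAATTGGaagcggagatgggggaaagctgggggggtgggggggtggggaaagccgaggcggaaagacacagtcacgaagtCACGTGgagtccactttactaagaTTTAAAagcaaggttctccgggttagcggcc
Alox5: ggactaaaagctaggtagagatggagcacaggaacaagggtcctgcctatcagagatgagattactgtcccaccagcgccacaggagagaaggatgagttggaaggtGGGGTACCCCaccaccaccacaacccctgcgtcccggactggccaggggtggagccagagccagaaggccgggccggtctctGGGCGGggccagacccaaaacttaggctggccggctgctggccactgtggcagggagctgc
The motifs, searched on both strands, were the usual TATA box written as TATAAA, its AT-rich variant TTTAAA, the GC box GGGCGG, the box named after CCAAT, the E-box CACGTG, the cAMP response element TGACGTCA, the AP-1 site TGANTCA, the C/EBP site TTNNGNAAT and, by name, the NF-kappaB consensus. With -1 as the base before the start, the Ptgs2 window held TTTAAA beginning at -31, CACGTG at -55, a C/EBP match at -140 that overlaps a CCAAT match on the minus strand at -133, and GGGCGG at -238. Among 33469 rat windows of this length, 12.3% held TTTAAA, 5.59% held CACGTG, 10.9% held the C/EBP letters, 34.0% held CCAAT and 30.5% held GGGCGG. The Alox5 window held GGGCGG at -61 and the NF-kappaB consensus at -143, the latter found in 6.33% of windows. None of the 9 motifs was matched in the Ptgs1 window. The share of rat windows with no match was not counted, so this is not read as unusual. G and C made up 54.4% of the bases in the Ptgs1 window, 57.2% in that of Ptgs2 and 62.8% in that of Alox5.

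The question put to the 6 libraries was whether loss of an epoxygenase was accompanied by a different transcript level of the enzymes that share its substrate. Ptgs2 differed most, with means of 0.292 CPM for the wild-type and 5.28 CPM for the knockout libraries, but the knockout libraries differed widely among themselves and its adjusted p missed the threshold. Ptgs1 was well expressed and nearly level between the genotypes, and Alox5 was weakly expressed with overlapping groups. At an adjusted p under 0.05, 0 of the 3 enzymes were called by edgeR's quasi-likelihood test, where 0.12% of the 11645 genes tested were called (0.112% as higher in knockout and 0.00859% as lower). At an unadjusted p under 0.05 it was 1 of 3, Ptgs2, against 7.65% of genes. Ptgs2 entered this test through its knockout libraries, so that share is not a background for a gene with its wild-type level. DESeq2 called 1 of the 3, also Ptgs2, against 1.2% of the 16319 genes to which it gave an adjusted p, and limma-voom called 0 of the 3, against 0.12%.

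Cyclooxygenase 2 was close to the limit of detection in wild-type macrophages. Wild type replicates 1, 2 and 3 had 10, 2 and 17 Ptgs2 counts, or 0.301, 0.0734 and 0.501 CPM. The exact 95% Poisson interval, which covers counting error only, ran from 0.144 to 0.553 CPM in wild type replicate 1, from 0.00889 to 0.265 in replicate 2 and from 0.292 to 0.803 in replicate 3. Knockout replicates 1, 2 and 3 had 92, 24 and 233 counts, or 4.26, 1.00 and 10.6 CPM. Every knockout library thus lay above every wild-type library, although the knockout libraries were the shallower. Of all genes tested, 5.31% were separated in this direction and 11.9% in the other by CPM of library totals. With library sizes scaled by the trimmed mean of M-values (TMM), which also separated Ptgs2, these shares were 7.54% and 7.45%. Only 1 wild-type library reached the minimum of the filter on low counts, 0.391 CPM, so Ptgs2 was tested through its knockout libraries. The shares are therefore not a background for a gene with its wild-type level.

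The knockout libraries fell into no tight group for Ptgs2. The highest, replicate 3, stood 10.5-fold above the lowest, replicate 2, and their counting intervals of 9.26 to 12.0 CPM and 0.643 to 1.49 CPM lay far apart. The interval of knockout replicate 1, from 3.44 to 5.23 CPM, overlapped neither. Knockout replicate 2 was 3.44-fold above the wild-type mean, but its interval overlapped that of wild type replicate 3, its neighbour in the order of levels. Within wild type the highest library stood 6.83-fold above the lowest, on 17 and 2 counts. The standard deviation over wild-type libraries was 0.214 CPM, and over knockout libraries it was 4.87 CPM (n = 3 each), or 73.4% and 92.2% of the respective mean.

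**Figure D1:**
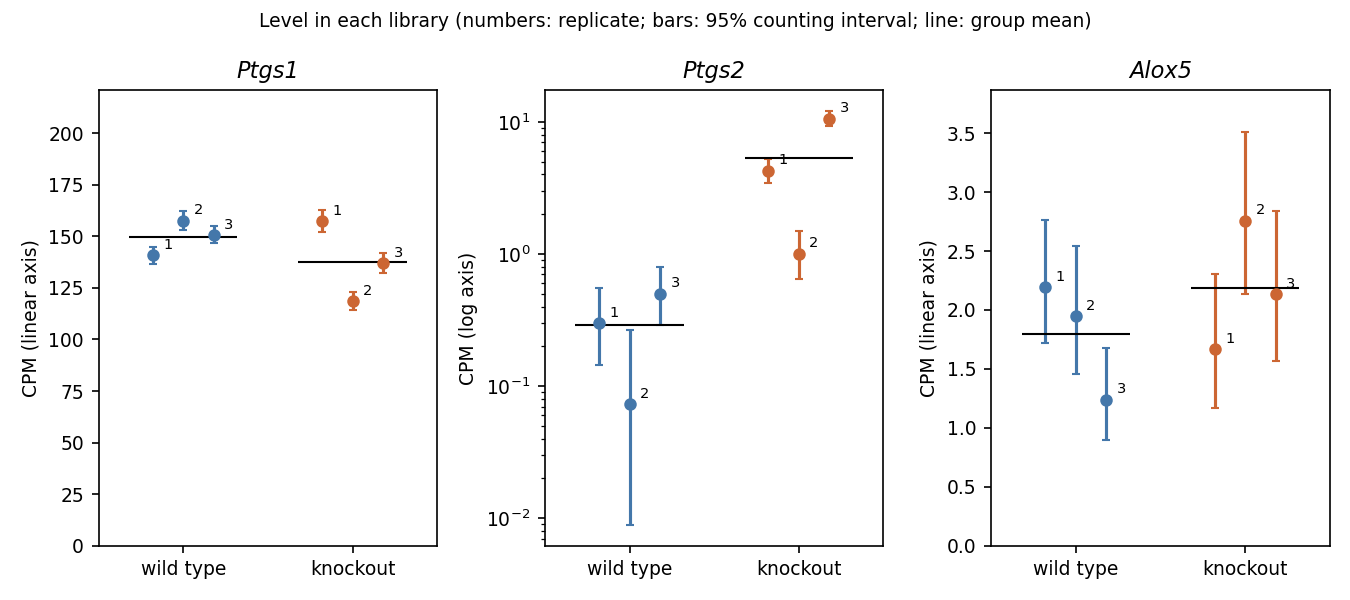
CPM of Ptgs1, Ptgs2 and Alox5 (y axis, logarithmic for Ptgs2 and linear from 0 for the others) in the 3 wild-type (blue) and 3 Cyp2j4 knockout (orange) libraries. Numbers are replicates, bars are exact 95% Poisson intervals of the counts and lines are group means; the groups are separated for Ptgs2 and overlap for Ptgs1 and Alox5.

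The fitted Ptgs2 level was 17.5-fold higher in knockout (log2 fold change 4.13 ± 0.91 SE, 95% interval of the fold 4.05 to 75.6, n = 3 per group). Its unadjusted p was 0.00215, and its edgeR quasi-likelihood adjusted p of 0.204 did not pass the threshold. By fitted increase, 10 of the 11645 genes lay above it, and fitted increases over 16-fold were found in 0.103% of genes. Ptgs2 passed the filter on low counts through its knockout libraries: 3 of them reached the minimum of 0.391 CPM, but only 1 wild-type library did, so a gene with its wild-type level could be tested only if it was higher in knockout. Its within-group standard deviation, 1.36 on the log2 scale against a median of 0.15 over all genes tested, exceeded that of nearly every other gene (percentile 99.97). Most of those genes had higher counts, since Ptgs2 was at percentile 16.9 of mean CPM. Genes of like level, where counting error is larger, were not compared separately.

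The call for Ptgs2 depended on the libraries and on the test. Without knockout replicate 2 the log2 fold change was 4.60 ± 0.54 (SE) and the edgeR adjusted p was 0.00605, with 2.11% of the 11867 genes then tested called. The ratio of mean CPM between knockout and wild type was 18.1 with all libraries and 25.4 without it. DESeq2 gave a log2 fold change of 4.20 with an adjusted p of 0.0125 on all 6 libraries. Limma-voom gave 3.85 with an adjusted p of 0.488. With no filter on low counts, edgeR gave 4.12 with an adjusted p of 0.0619, where 0.344% of 17135 genes were called. Without knockout replicate 3, the highest library, the log2 fold change was 3.11, and without wild type replicate 3, the highest of its group, it was 4.74, with edgeR adjusted p of 0.433 and 0.534.

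**Figure D2:**
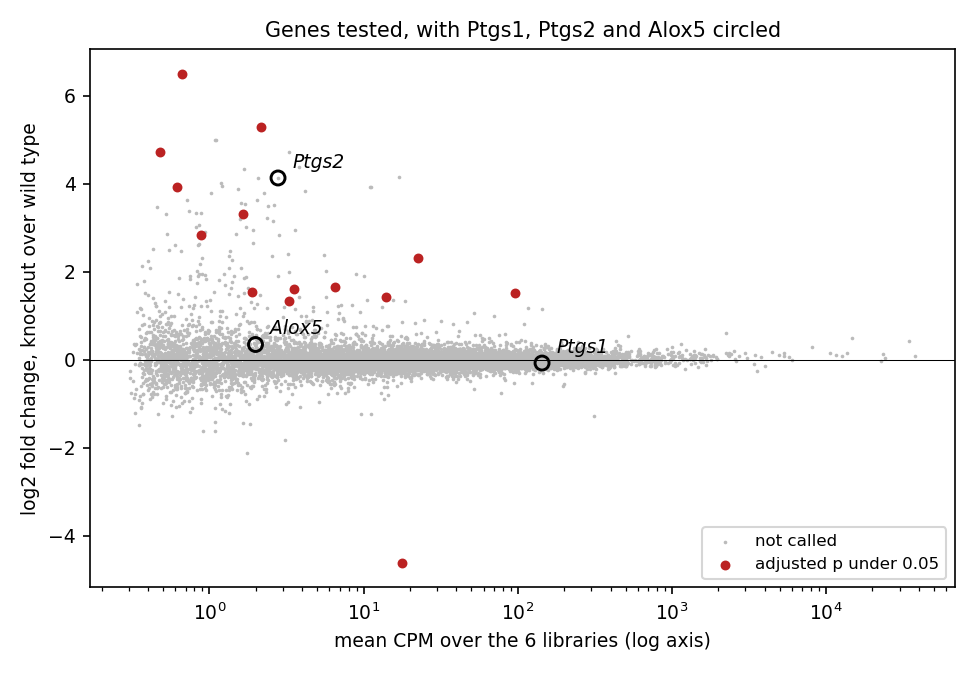
Log2 fold change of knockout over wild type (y axis) against the mean CPM over 6 libraries (x axis, logarithmic) for the 11645 genes tested with edgeR. Red points passed an adjusted p of 0.05 and circles mark the 3 enzymes: Ptgs2 lies at 4.13 among weakly expressed genes, and Ptgs1 lies at -0.07 and Alox5 at 0.35.

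Cyclooxygenase 1 gave many reads in both genotypes, and its means differed by less than the spread of the knockout libraries. Ptgs1 had 4681, 4297 and 5112 counts in wild type replicates 1, 2 and 3, or 141, 158 and 151 CPM. It had 3401, 2840 and 3018 counts in knockout replicates 1, 2 and 3, or 158, 119 and 137 CPM. Knockout replicate 1 lay among the wild-type libraries and the other 2 knockout libraries below them, so the groups overlapped. With TMM scaling knockout replicate 1, at 154 CPM, lay above every wild-type library (143 to 151 CPM), and the groups still overlapped. By library totals, wild-type libraries averaged 150 ± 8.52 CPM, and knockout libraries 138 ± 19.4 CPM (SD, n = 3). Its mean level over all libraries was at percentile 90.4 of the genes tested.

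The log2 fold change of Ptgs1 was -0.07 ± 0.08 (SE of the fit to 3 libraries a group; adjusted p = 0.911 by edgeR), with a 95% interval from 0.829-fold to 1.09-fold. The median over all genes tested was -0.01. The interval of Ptgs2 began higher, at 4.05-fold, but that gene was tested through its knockout libraries, so the intervals are not read as a test. The changes of Ptgs1 and Ptgs2 are compared only by their ratio below (exact permutation adjusted p = 0.3). Knockout replicate 2 was the lowest of the 6 libraries for Ptgs1, and without it the log2 fold change was -0.01 (edgeR adjusted p = 0.924). Counting error was small for Ptgs1: the interval of knockout replicate 2 was 114 to 123 CPM.

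5-Lipoxygenase was weakly expressed in both genotypes. Alox5 had 73, 53 and 42 counts in wild type replicates 1, 2 and 3, or 2.19, 1.95 and 1.24 CPM. It had 36, 66 and 47 counts in knockout replicates 1, 2 and 3, or 1.67, 2.76 and 2.13 CPM. The groups overlapped, with the highest value in knockout replicate 2 and the lowest in wild type replicate 3. The means were 1.79 ± 0.496 CPM and 2.19 ± 0.548 CPM (SD, n = 3). The counting intervals of the 3 knockout libraries, which together spanned 1.17 to 3.51 CPM, overlapped one another.

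For Alox5 the log2 fold change was 0.35 ± 0.30 (SE of the fit to 3 libraries a group; adjusted p = 0.872 by edgeR), with a 95% interval from 0.786-fold to 2.06-fold. Without knockout replicate 2 the log2 fold change was 0.10, and without wild type replicate 3 it was 0.13 (edgeR adjusted p = 0.887 and 0.999). Its mean CPM was at percentile 13.6 of the genes tested, and that of Ptgs2 at 16.9. CPM is not divided by transcript length, so the levels of the 3 genes are not ranked against one another.

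**Figure D3:**
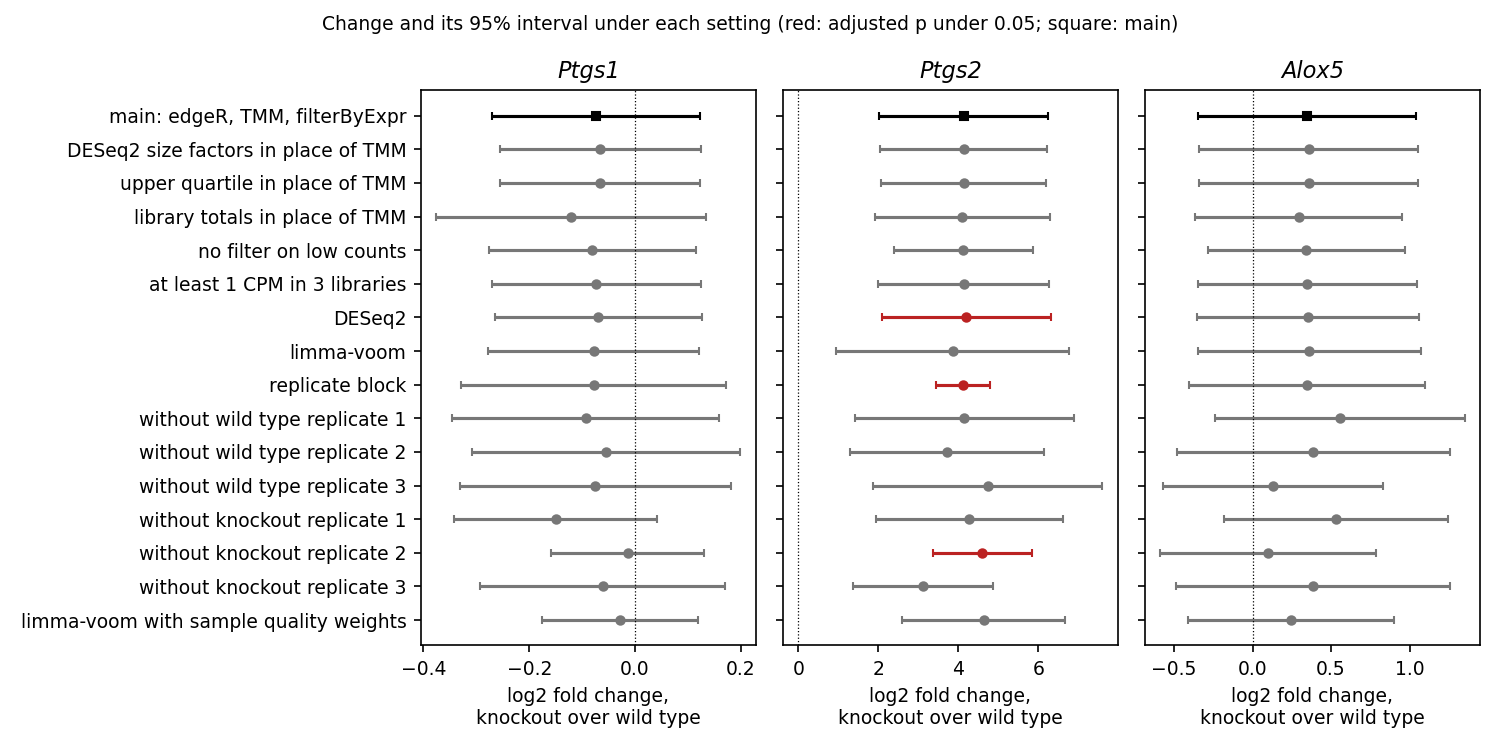
Log2 fold change of knockout over wild type (x axis, a separate scale for each gene) with its 95% interval, under the fit reported here (square) and 15 alternatives (rows). Red marks an adjusted p under 0.05, which Ptgs2 reached with DESeq2, with the replicate block and without knockout replicate 2, while Ptgs1 and Alox5 reached it under none of the settings shown.

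Ratios of counts within a library do not depend on how libraries are scaled to each other. The log2 ratio of Ptgs2 to Ptgs1 counts was -8.87, -11.07 and -8.23 in wild type replicates 1, 2 and 3. In the knockout replicates it was -5.21, -6.89 and -3.70. Every knockout library lay above every wild-type library, and the mean difference was 4.13, or 17.5-fold. The exact two-sided permutation p was 0.1, which with 3 libraries a group cannot go lower. Adjusted over the 3 ratios by Benjamini-Hochberg, this p was 0.3. Since Ptgs1 was nearly level (log2 fold change -0.07), the ratio restates the Ptgs2 difference and is not a second result. Ptgs2 also passed the filter on low counts through its knockout libraries. How often ratios of other gene pairs separate in this way was not counted. The size of the difference in ratio rested on single libraries: it was 4.94 without knockout replicate 2 and 3.34 without knockout replicate 3. It was 4.71 without wild type replicate 3 and 3.29 without wild type replicate 2, the library with 2 Ptgs2 counts (exact permutation p = 0.2 in the last). In counts, there was 1 Ptgs2 read for every 468, 2149 and 301 Ptgs1 reads in the wild-type replicates and for every 37.0, 118 and 13.0 in the knockout replicates. Ptgs1 transcripts therefore gave most cyclooxygenase reads in all 6 libraries, before any allowance for length.

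The balance of the lipoxygenase with the cyclooxygenases was less clear. The log2 ratio of Ptgs2 to Alox5 counts was -2.87, -4.73 and -1.30 in wild type replicates 1, 2 and 3, and the knockout replicates stood at 1.35, -1.46 and 2.31. Knockout replicate 2 lay just below wild type replicate 3, so the groups overlapped (difference of means 3.70, exact permutation p = 0.2, adjusted p = 0.3, n = 3 each). Knockout replicate 2 alone made the groups overlap, so without it they were separated, with a difference of 4.80. The exact permutation p was then 0.1, the smallest that the remaining libraries allow. For every Alox5 read wild type replicates 1, 2 and 3 had 64.1, 81.1 and 122 Ptgs1 reads. The knockout replicates had 94.5, 43.0 and 64.2, a range that overlaps the first. The difference of the mean log2 ratios was -0.43 (exact permutation p = 0.5, adjusted p = 0.5, n = 3 each), and without knockout replicate 2 it was -0.14 (exact permutation p = 0.9).

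**Figure D4:**
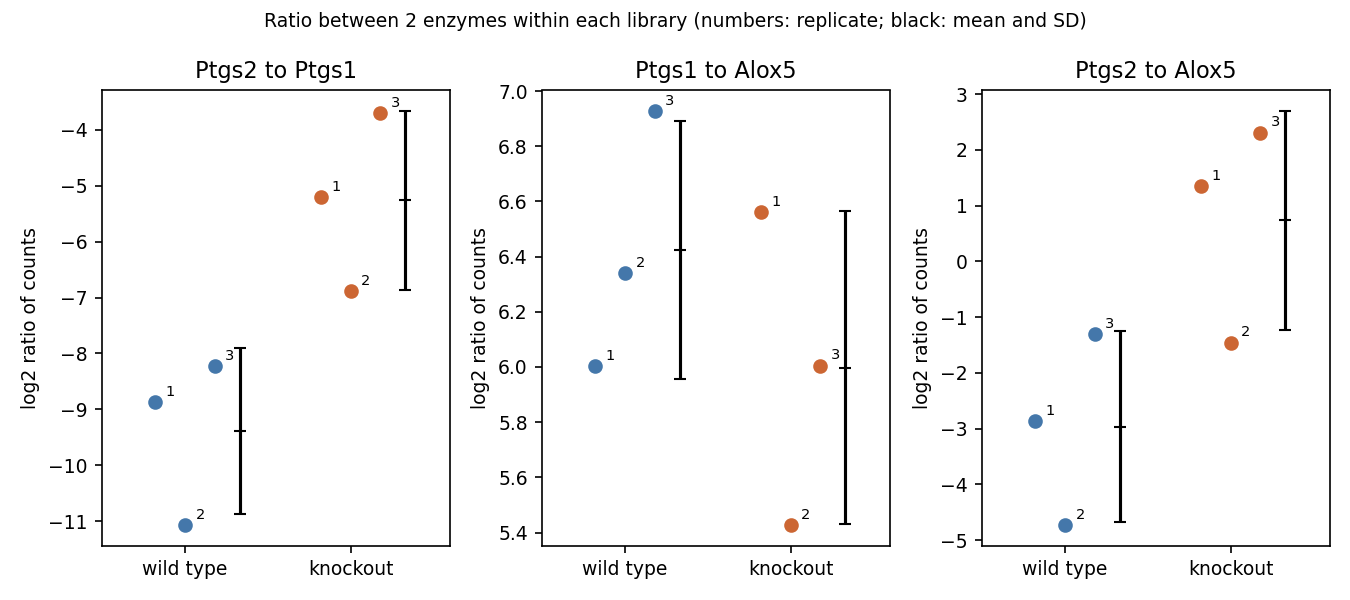
Log2 ratio of the counts of 2 enzymes within each library (y axis) for the 3 pairs, by genotype, with the replicate numbers and, in black, the mean and SD of each group. The genotypes are separated for Ptgs2 to Ptgs1 and overlap for the pairs that include Alox5.

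The genes whose log2 CPM followed each enzyme most closely over the 6 libraries, among genes of at least 10 mean CPM, were known by identifier alone. For Ptgs2 this was ENSRNOG00000023509 (Pearson r = 0.997 over 6 libraries, 7660 genes compared), which varied only between 9.25 and 14.1 CPM, so that the likeness is one of shape and not of size. The closest to Ptgs1 was ENSRNOG00000025406 (r = 0.999), at 7.23 to 14.2 CPM, and to Alox5 it was ENSRNOG00000024455 (r = 0.991), at 22.7 to 26.0 CPM. With 6 libraries and this many genes, high correlations are common: 429 genes correlated with Ptgs1 above 0.9, 105 with Ptgs2 and 136 with Alox5.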

How the data were processed

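The authors deposited 1 table of raw read counts per gene, with 1 column for each of 6 libraries. Per the submitters' processing notes, the tools were TopHat2 and HTSeq and the build was rn4. Versions, annotation and strand setting were not given in the sources used here, so how reads over overlapping or antisense genes were assigned is not known. The 5 lines that name no gene (ambiguous reads were 0.799% to 0.943% of all listed) were left out. CPM is a count divided by the sum over all Ensembl genes, times 1000000.

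Counts were fitted in R 4.3.3 with edgeR 4.0.16 (filterByExpr, TMM, glmQLFit and glmQLFTest, genotype as the only term), which left 11645 of 29516 genes, and p-values were Benjamini-Hochberg adjusted over all of these. Standard errors were derived from the F statistic, and 95% intervals from the t distribution of the fit. Correlations used log2 CPM with a prior count of 2. The tests were tried on simulated data in which all planted changes were smaller than the fitted Ptgs2 change. No single library was made to stand apart there, so the trial does not bear on the Ptgs2 result. Alternatives were other scalings and filters, DESeq2 1.42.0, limma-voom (limma 3.58.1), the replicate number as a block, each library left out, and, added after the data were seen, sample quality weights. The motifs were also chosen then.

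The 3 genes, the lists and the rule for individual genes (the 3 enzymes and, for each, the gene of at least 10 mean CPM most correlated with it) were chosen with earlier results of these data known. The labels do not tie libraries to cultures or days, so the p-values reflect only the spread among the libraries, which may be technical. All pairs of libraries differed by more than counting noise (lowest chi-square per degree of freedom 9.85). The RefSeq gene table (assembly GRCr8) held 0 of the Ensembl IDs and all 3 symbols. The other eicosanoid synthases, their receptors and the cell type markers, which had been listed by symbol, were not analysed here for want of paired identifiers. Upstream sequences are from RefSeq, GRCr8, and were not joined to any position in the count table.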

Additional observations from a re-analysis of the deposited data

How the results depend on the processing

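Ptgs1 and Alox5 kept their direction and stayed short of the threshold under all 15 alternatives, with log2 fold changes from -0.15 to -0.01 (Ptgs1, adjusted p from 0.587) and from 0.10 to 0.56 (Alox5, adjusted p from 0.607). Ptgs2 kept its direction under all 15 (log2 fold change 3.11 to 4.74, adjusted p 0.00605 to 0.656) and passed the threshold under 3: DESeq2 (4.20), the replicate block (4.12, edgeR adjusted p = 0.0175) and the fit without knockout replicate 2 (4.60). With sample quality weights, chosen after the data were seen, its adjusted p was 0.0541, and knockout replicate 2 had a weight of 0.192. Leaving out 1 library gave Ptgs2 values from 3.11 to 4.74. Residuals of same-numbered libraries correlated at -0.44, -0.14 and 0.15, and 1 of 6 libraries correlated best with its own number, so the block was not taken as a pairing, although Ptgs2 was highest in replicate 3 and lowest in replicate 2 of both genotypes.

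Over all genes the 14 calls became 59 with no filter on low counts, 196 with DESeq2, 27 with the replicate block (9 shared), 139 with quality weights, 41 at an adjusted p under 0.1 and 1 at an adjusted p under 0.01. They became 4, 1 and 1 without wild type replicates 1, 2 and 3, and 6, 250 and 2 without knockout replicates 1, 2 and 3, a range of 1 to 250. The other scalings, the 1 CPM filter and limma-voom gave 11 to 15. The 3 ratios kept their direction under all 9 alternatives each, Ptgs2 to Ptgs1 from 3.29 to 4.94. Of these, the replicate block leaves the difference of means unchanged by construction, so its direction could not differ. The paired sign-flip test with that block gave the Ptgs2 to Ptgs1 ratio an exact p of 0.25, the smallest that 3 pairs allow. Mean CPM moved by less than 1 SD under TMM scaling. The list of other pathway genes and its alternatives were not run. Depth limits Ptgs2 in wild type, where 3 counts are 0.0885 to 0.11 CPM.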
